A study of Mus musculus with 16 samples.

Results

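Prokr1 and Prokr2, the mouse genes of the prokineticin receptors, and Prok2, the gene of the ligand prokineticin 2, were followed through sorted cells of dorsal root ganglia. They were picked by symbol, 3 of 22609 gene entries, and with their levels in view, so what they did after paclitaxel is described here without a test. Levels are given as CPM, the count scaled by the total of the library. Prokineticins are small secreted proteins that act on a pair of closely related G-protein-coupled receptors, which couple mainly to Gq and so to phospholipase C, calcium release and protein kinase C. In rodent nociceptors, the sensory neurons that detect damaging stimuli, receptor activation is known to sensitise the heat channel TRPV1 and to lower pain thresholds. Neutrophils and other myeloid cells are a known source of prokineticin 2 in inflamed tissue, where the cytokine G-CSF induces it, and the gene is also a circadian output of the hypothalamus.

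The 16 libraries came from male mice of 8 to 16 weeks. All mice carried floxed alleles of Ltbr, the lymphotoxin-beta receptor gene, either together with a Cre recombinase driven by Nav1.8, a sodium channel of nociceptors (labelled CKO), or alone (labelled fl/fl). Paclitaxel (PTX), a microtubule-stabilising chemotherapy drug, was given intraperitoneally at 6 mg per kg, 3 times at 2-day intervals, and control mice are labelled water and called vehicle. A fluorescent wheat germ agglutinin tracer was injected into the paw 16 days after the last dose, and cells that had taken it up were sorted from the L3 to L5 ganglia at 18 days. The groups were PTX CKO, PTX fl/fl, vehicle CKO and vehicle fl/fl, with 4 libraries each, whereas the design text states 3. The labels do not tie the 4 libraries to different animals, and the p-values therefore reflect library-to-library spread, possibly technical in origin.

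Libraries held 7906504 to 11668007 gene counts. Replicates 1 and 2 carry an earlier and replicates 3 and 4 a later date in their titles, in September for PTX and in October for vehicle, so date and treatment cannot be told apart. Ltbr was not lower under the CKO label. It stood at 5.88 to 28.4 CPM in PTX CKO and 6.06 to 15.6 CPM in PTX fl/fl. Vehicle CKO held 32.3 to 99.0 CPM and vehicle fl/fl 42.4 to 51.4 CPM. These counts cover the whole gene and all cells of a library, so they cannot decide whether it was deleted in Nav1.8 neurons. CKO and fl/fl stand below for the labels alone. The sorted cells were labelled as neurons. The 16 pan-neuronal markers took 0.848 to 2.26 percent of gene counts in PTX CKO, 1.14 to 2.17 percent in PTX fl/fl, 0.131 to 0.368 percent in vehicle CKO and 0.0896 to 0.708 percent in vehicle fl/fl. The 17 neutrophil markers found in the files, of 18 listed, took 0.0321 to 12.2 percent, 0.567 to 10.6 percent, 7.74 to 19.4 percent and 8.57 to 18.4 percent in the same 4 groups. Vehicle libraries therefore held less neuronal RNA than any PTX library and more neutrophil RNA than those of the earlier PTX date. In such bulk samples fewer cells of a type and less RNA per cell cannot be told apart.

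The stretch just before each gene's start site is shown because the receptors and the ligand followed different patterns over the libraries. Each line gives the 150 bases upstream of the start on the gene's own strand, from RefSeq on GRCm38.p6, which is not the mm9 build on which the counts were made. Capitals mark matches, on either strand, to the E-box CACGTG, the STAT motif TTCNNNGAA, the AP-1 motif TGANTCA, the GC box GGGCGG or the cyclic AMP response element TGACGTCA.
Prokr1, chr6:87590744-87590893, minus strand: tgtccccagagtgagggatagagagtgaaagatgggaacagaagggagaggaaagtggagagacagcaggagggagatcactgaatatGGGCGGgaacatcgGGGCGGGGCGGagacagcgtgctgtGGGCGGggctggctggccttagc
Prokr2, chr2:132385448-132385597, minus strand: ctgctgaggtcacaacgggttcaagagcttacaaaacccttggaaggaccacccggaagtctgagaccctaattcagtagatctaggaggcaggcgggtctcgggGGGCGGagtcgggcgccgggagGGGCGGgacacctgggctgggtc
Prok2, chr6:99726393-99726542, minus strand: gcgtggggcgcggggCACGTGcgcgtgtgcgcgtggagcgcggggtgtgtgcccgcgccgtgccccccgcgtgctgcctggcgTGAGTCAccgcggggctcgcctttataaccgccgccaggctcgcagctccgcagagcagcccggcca
The receptor genes held only GC boxes, 4 in Prokr1, of which a pair overlap, and 2 in Prokr2, and 28.6 percent of 32851 mouse promoter windows of this length hold at least 1. Prok2 had no GC box but 1 E-box, as do 4.30 percent of windows, and 1 AP-1 match, as do 4.24 percent. The STAT motif, in 4.09 percent of windows, and the cyclic AMP response element, in 1.36 percent, were in none of the 3. These are letter matches and say nothing of whether a factor binds.

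Prokr2 separated the treatments more fully than the other members. It stood at 24.4, 16.8, 3.40 and 22.8 CPM in PTX CKO and at 27.1, 26.1, 16.6 and 42.5 CPM in PTX fl/fl, against 0 in each vehicle CKO library and 0, 0.117, 0 and 0 CPM in vehicle fl/fl. Every PTX library thus lay above every vehicle library, with replicate 3 of PTX CKO the lowest of the 8. The counts summed to 649 in PTX CKO and 0 in vehicle CKO, and to 1204 in PTX fl/fl and 1 in vehicle fl/fl. With vehicle CKO set at a limit of 3 reads summed over its libraries (0.0848 CPM), Prokr2 was 197-fold higher in PTX CKO than in vehicle CKO. The lower end of the 95 percent counting interval of that ratio, taken from the counts themselves, was 160, and 0 vehicle reads give no upper end. In fl/fl, where the vehicle group held a single read, the ratio of PTX to vehicle was 1170, with a 95 percent counting interval of 210 to 46300. These intervals and floors cover counting error only.

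In CKO, 2 of the 3 members, Prokr2 and Prokr1, were higher in every PTX than in every vehicle library, and in fl/fl 1, Prokr2, was; none was lower throughout. Of the 14200 genes tested, 8.91 percent were higher and 4.54 percent lower in this way in CKO, and 11.0 percent higher and 7.80 percent lower in fl/fl. By edgeR's quasi-likelihood test (adjusted p under 0.05 over all genes), 2.58 percent of genes were called in CKO (2.22 percent higher, 0.359 percent lower) and 4.96 percent in fl/fl (3.20 percent higher, 1.76 percent lower), with Prokr2 the 1 member among them in each. Nothing is read from that call, since Prokr2 was chosen on these values, and it was not made without the earlier PTX date in either genotype. A criterion was set on Prokr2's own values: over 1 CPM in all 8 PTX and at most 1 count over all 8 vehicle libraries. As it was written after those values were seen, that 1 of the genes tested met it, Prokr2 itself, is no evidence of rarity.

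The neuronal share moved in the same direction by a smaller factor. All 16 pan-neuronal markers were tested, and their median log2 fold change was 2.28 in CKO (8 higher, 0 lower) and 2.35 in fl/fl (11 higher, 0 lower), where the median over all genes was 0.016 and -0.0074. At an unadjusted p under 0.05 none of them was lower. DESeq2, which called 1446 genes in CKO and 1626 in fl/fl in all, called 12 of these markers higher and 0 lower in each genotype. Set against the summed counts of those markers, Prokr2 gave 15.6, 8.00, 3.96 and 28.5 counts per 10000 marker counts in PTX CKO and 12.9, 13.5, 14.8 and 38.2 in PTX fl/fl. The vehicle values were 0 in all 4 CKO libraries and 0, 1.12, 0 and 0 in fl/fl, so the separation was as complete on this scale. The part of the larger neuronal share, and that of the title dates, in the Prokr2 difference was not tested.

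**Figure D1:**
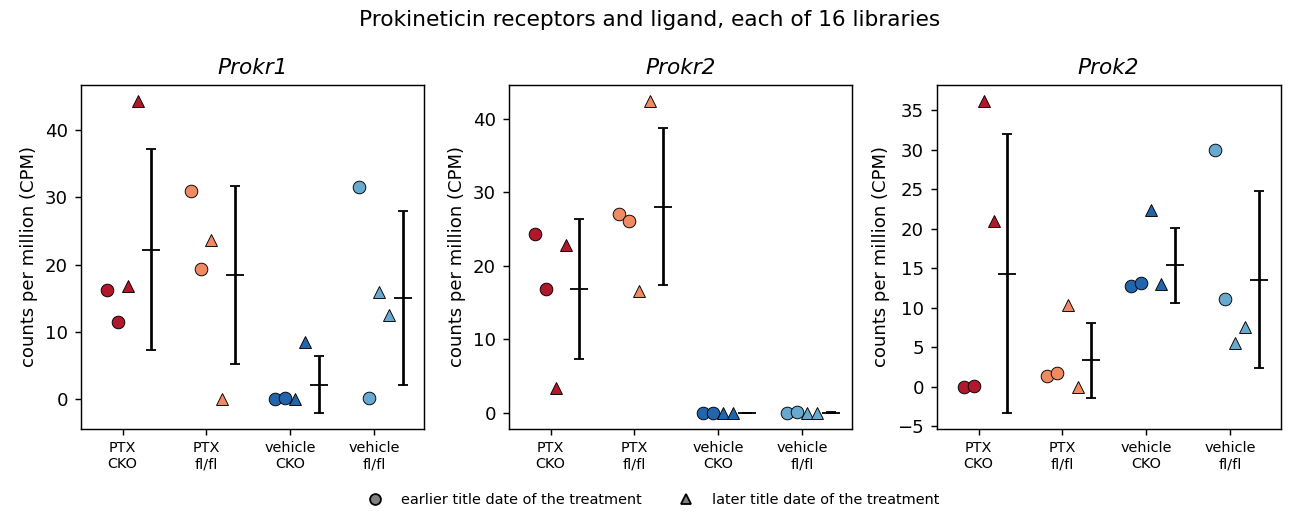
CPM of Prokr1, Prokr2 and Prok2 (y axis, linear) in each of the 16 libraries by group (x axis), with circles for the earlier and triangles for the later title date of the treatment and bars for mean ± SD (n = 4). Prokr2 lies at 3.40 CPM or more in all PTX libraries and at 0.117 CPM or less in all vehicle libraries, while Prokr1 and Prok2 each have libraries near 0 within a group that reaches 8.44 CPM or more.

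Prokr1 was present in both treatments and was on or off by library. It stood at 16.2, 11.5, 16.8 and 44.4 CPM in PTX CKO, 30.9, 19.4, 23.6 and 0 CPM in PTX fl/fl, 0, 0.111, 0 and 8.44 CPM in vehicle CKO and 31.6, 0.234, 15.9 and 12.5 CPM in vehicle fl/fl. PTX CKO was thus the 1 group without a library near 0, and its lowest library lay above the highest of vehicle CKO, while the 2 fl/fl groups overlapped. Replicate 4 of PTX fl/fl had no Prokr1 read and at the same time the highest Prokr2 level of all 16 libraries. The fitted log2 fold change of PTX over vehicle was 3.36 ± 1.74 in CKO and 0.30 ± 1.58 in fl/fl (± SE), wide against their size. In vehicle CKO, 81 of the 82 reads of the group came from replicate 4. Without that library the fitted CKO value was 8.77 and edgeR called Prokr1 higher, which it did not with all libraries. That call is not read as a result, since Prokr1 was chosen with these values in view and nearly all vehicle CKO reads were left out.

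A library with 0 counts was common among genes at this level of expression. The means of the 3 members over all libraries ranged from 11.2 to 14.5 CPM. Of the 763 tested genes in that range 364, or 47.7 percent, had 0 counts in at least 1 of the 16 libraries. Each also had a library over 10 CPM, as any mean in that range requires. The share does not tell a zero in a single library from zeros throughout a group, and those of Prokr2 all lay in vehicle libraries. All 3 members had a library with 0 counts, and all 3 passed the filter on low counts. Prokr1 was detected in 13 libraries, Prok2 in 14 and Prokr2 in 9. The longest Prokr1 and Prokr2 transcripts had no 50-base stretch in common, the read length used. No read without a mismatch could thus match both, and stretches that differ by a few bases were not looked for.

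Per length of transcript the receptors reached like levels where both were present. Prokr2 had a median of 4.41 CPM per kilobase (0.758 to 5.44) and Prokr1 one of 3.90 (2.72 to 10.5) in PTX CKO, and in PTX fl/fl the medians were 5.93 (3.70 to 9.47) and 5.08 (0 to 7.30). These neighbours overlapped in both groups. In vehicle fl/fl Prokr1 had a median of 3.36 CPM per kilobase and Prokr2 one of 0, so that there Prokr1 made up nearly all receptor reads. The lengths, 4.49 kilobases for Prokr2 and 4.23 for Prokr1, are those of GENCODE M21 transcripts and may differ from the models used for counting.

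Relative to the pan-neuronal markers Prokr1 overlapped between treatments. It gave 10.4, 5.47, 19.6 and 55.5 counts per 10000 marker counts in PTX CKO and 14.7, 10.0, 21 and 0 in PTX fl/fl, against 0, 0.841, 0 and 23.5 in vehicle CKO and 120, 2.24, 37.4 and 19.1 in vehicle fl/fl. The highest value of all 16 was replicate 1 of vehicle fl/fl. The PTX and vehicle groups of each label overlapped on this scale.

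**Figure D2:**
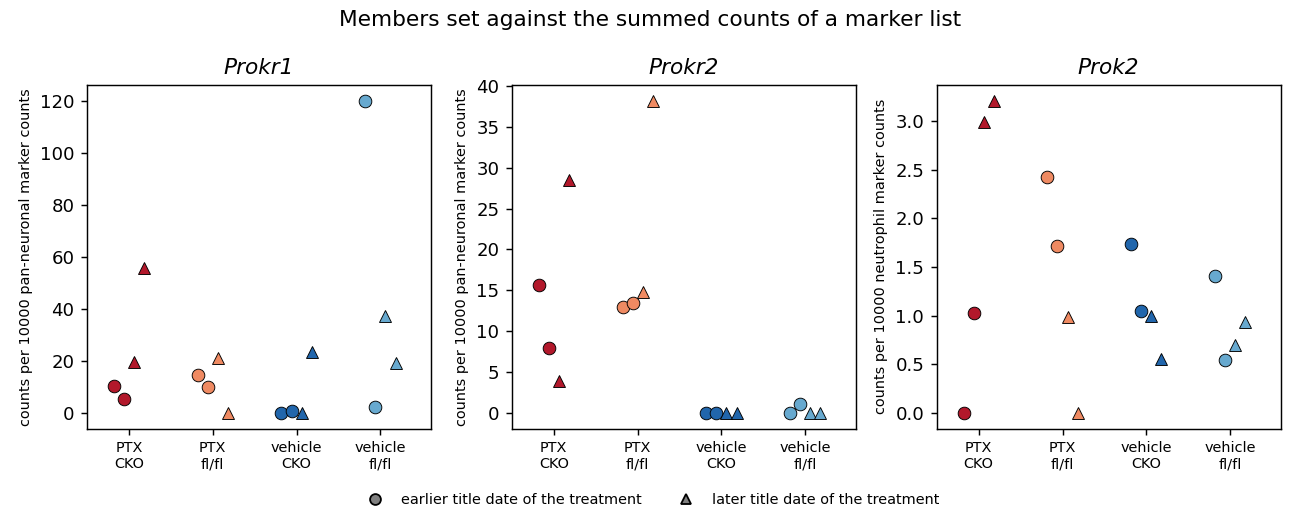
Counts of Prokr1 and Prokr2 per 10000 counts of 16 pan-neuronal markers, and of Prok2 per 10000 counts of 17 neutrophil markers (y axes, linear), in each library by group (x axis), with circles for the earlier and triangles for the later title date. Prokr2 keeps its separation, from 3.96 upward after PTX and at most 1.12 after vehicle, whereas Prokr1 reaches 120 in a vehicle fl/fl library and Prok2 overlaps between all groups.

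Prok2, the ligand gene, followed neither receptor. It stood at 0, 0.0949, 36.2 and 21 CPM in PTX CKO, 1.33, 1.76, 10.3 and 0 CPM in PTX fl/fl, 12.8, 13.2, 22.4 and 13 CPM in vehicle CKO and 30.0, 11.1, 5.60 and 7.57 CPM in vehicle fl/fl. All 4 PTX libraries of the earlier date were at 1.76 CPM or below, those of the later date spread from 0 to 36.2 CPM, and every vehicle library held 5.60 CPM or more. The fitted log2 fold change of PTX over vehicle was -0.10 ± 1.49 in CKO and -2.02 ± 1.55 in fl/fl, with overlapping groups in both. Without replicate 3 of PTX fl/fl the fl/fl value was -3.70.

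The neutrophil markers divided the PTX libraries by date, and Prok2 did so except in replicate 4 of PTX fl/fl, of the later date, which was at 0. The share of these markers of counts was 0.0321, 0.0997, 12.2 and 6.93 percent in PTX CKO and 0.567, 1.07, 10.6 and 5.56 percent in PTX fl/fl, against 7.74 to 19.4 percent in all vehicle libraries. None of the 17 tested markers was called between PTX and vehicle in either genotype by edgeR, none had an unadjusted p under 0.05 and DESeq2 called 0. Their median log2 fold change was -1.49 in CKO and -1.74 in fl/fl. Per 10000 neutrophil marker counts Prok2 ranged from 0 to 3.21 in PTX CKO, 0 to 2.42 in PTX fl/fl, 0.554 to 1.74 in vehicle CKO and 0.545 to 1.41 in vehicle fl/fl. The pooled values of the 2 vehicle groups were 0.918 in CKO and 0.937 in fl/fl, and those of the PTX groups 3.05 in CKO and 0.798 in fl/fl.

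The genes most like Prok2 over the libraries began with a pair of neutrophil granule enzymes. Likeness was the Pearson correlation of log2(CPM + 1) over 16 libraries after subtraction of each group's mean, ranked over 10860 genes with a mean of at least 5 CPM. The 16 points share library preparation and neutrophil content, so it is a description. Mpo (r = 0.97) and Elane (0.96), the granule enzymes myeloperoxidase and neutrophil elastase made at the promyelocyte stage, led the list, followed by Fcnb (0.95), the ficolin-B gene of immature myeloid cells, the RNA-binding protein gene Mbnl3 (0.95) and the immunoglobulin superfamily gene Igsf6 (0.95). The hundredth gene stood at 0.84, the median of all genes at -0.06 and that of the 17 neutrophil markers at 0.85, of which Csf3r, the G-CSF receptor, was lowest at 0.78.

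Replicate 4 of PTX fl/fl held S100a8, an alarmin of mature neutrophils, at 19600 CPM and Csf3r at 428 CPM, while Mpo was at 0.305, Elane at 0.102 and Prok2 at 0 CPM. Mpo and Elane were picked for their likeness to Prok2 over these libraries, so their low values there are a description and no separate evidence. Replicate 4 of PTX CKO, of the same date, held S100a8 at 19700 CPM and Csf3r at 273 CPM together with Mpo at 363, Elane at 124 and Prok2 at 21 CPM. The highest Prok2 level, 36.2 CPM in replicate 3 of PTX CKO, went with the highest Mpo and Elane levels, 2600 and 766 CPM. Csf3r was added to the named genes after its values were seen.

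**Figure D3:**
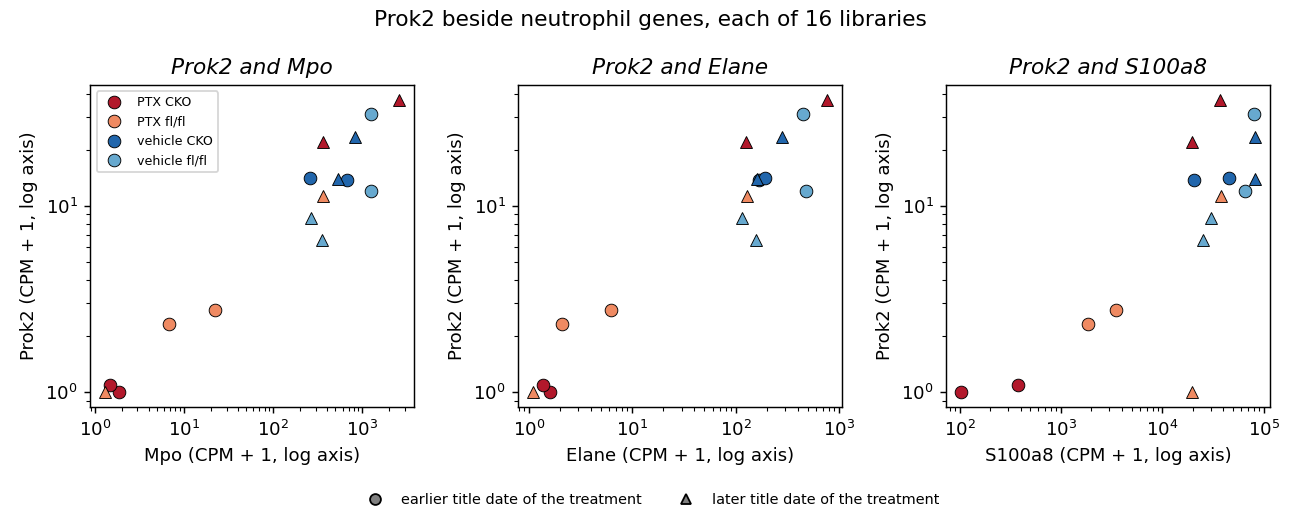
Prok2 (y axis, CPM + 1, log scale) against Mpo, Elane and S100a8 (x axes, CPM + 1, log scale) in 16 libraries, coloured by group, with circles for the earlier and triangles for the later title date. The PTX fl/fl library with 0 Prok2 lies with the other low libraries for Mpo and Elane (0.305 and 0.102 CPM) but among the high ones for S100a8 (19600 CPM).

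The genes most like the receptors shared no such theme by name. For Prokr1 they were Dlg2 (r = 0.92), a synaptic scaffold gene that was detected in 14 libraries and was at 0.406 CPM in the PTX fl/fl library without Prokr1, Exosc2 (0.90), an RNA exosome subunit gene, Sdr39u1 (0.86), Dimt1 (0.85) and Gpn1 (0.84). For Prokr2 they were Crabp1 (0.91), a retinoic acid binding protein gene, Car2 (0.89), the carbonic anhydrase 2 gene, Cachd1 (0.84), Zfp809 (0.78) and Pfdn1 (0.76). With the pan-neuronal markers the median r was 0.37 for Prokr1 but only 0.09 for Prokr2. With the satellite glial markers it was -0.47 for Prokr1 and 0.37 for Prokr2, and with the neutrophil markers 0.01 and -0.51. Within groups Prokr2 thus did not follow the pan-neuronal markers closely. All Prokr2 values of this kind describe the PTX libraries almost alone, since the vehicle libraries are at or near 0. Replicate 3 of PTX CKO, lowest of the PTX libraries in Prokr2, was also lowest of all 16 in Crabp1 (1.96 CPM), Car2 (2.37 CPM) and Cachd1 (1.86 CPM), none of which was called between PTX and vehicle. These genes were picked for their likeness to Prokr2 over these libraries, so their low values there are no separate evidence. The same holds for Dlg2 in the library without Prokr1.

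No member differed by genotype label past the test's threshold, and none separated the labels without overlap in either treatment, where 0.690 percent of genes were higher and 1.37 percent lower in all CKO libraries under PTX, and 0.810 percent higher and 1.68 percent lower under vehicle. An exact two-sided permutation test over 70 assignments of 4 against 4 libraries was run on log2(CPM + 1) for each member within each treatment, 6 tests in all, where the smallest p it allows is 0.0286. Prokr1 averaged 0.85 in vehicle CKO and 3.29 in vehicle fl/fl on that scale, a difference of -2.44 (exact permutation p = 0.0571), with a CKO library at 8.44 CPM above a fl/fl library at 0.234 CPM. Within dates the vehicle difference of Prokr1 was -2.59 for the earlier and -2.30 for the later date, with 2 libraries of each label. Under PTX, Prokr1 differed by 0.86 (exact permutation p = 0.743), and the sign differed between dates (-0.80 earlier, 2.52 later).

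Prokr2 averaged 3.88 in PTX CKO and 4.79 in PTX fl/fl, a difference of -0.91 (exact permutation p = 0.171), of the same sign on the earlier (-0.38) and the later date (-1.44). It was lower in CKO in each of the 4 pairs of libraries with the same replicate number. Such libraries deviated together under PTX, but they also share a title date, so this does not single out the pairing by number. The most similar library of the other label had the same number in 5 of 8 cases. Permutation within pairs gave an exact p = 0.125, the smallest that 4 pairs allow. No label gives this pairing, and the result rests on it. Replicate 4 of PTX CKO (22.8 CPM Prokr2) lay above replicate 3 of PTX fl/fl (16.6 CPM), of the same date. Both vehicle groups were at or under the floor of 3 counts, and no fold is given for them (exact permutation p = 1). Prok2 differed by 0.91 under PTX (exact permutation p = 0.629), by -1.28 on the earlier and 3.09 on the later date. Under vehicle the difference was 0.40 (exact permutation p = 0.514), by -0.47 and 1.27. Across all genes edgeR called 0 genes between labels under PTX (266 at an unadjusted p under 0.05, and 18 by DESeq2) and 3, or 0.0211 percent, under vehicle, none of them a member (655 at an unadjusted p under 0.05, and 108 by DESeq2). For the interaction of label and PTX, where 1 gene or 0.00704 percent was called, higher and no member, edgeR's adjusted p was 1.00 for both Prokr1 (3.07 ± 2.29 on the log2 scale) and Prok2 (1.92 ± 2.13).

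Of the other prokineticin genes, Prok1, the second ligand gene, had 0 counts in all 16 libraries, which allows up to 0.0189 CPM over all of them. Mrap2, an accessory protein gene whose product is known to dampen prokineticin receptor signalling, stood at 4.43, 5.79, 0 and 0 CPM in PTX CKO, 6.15, 6.77, 8.07 and 15.1 CPM in PTX fl/fl, 8.98, 0, 0 and 0 CPM in vehicle CKO and 0, 0.117, 0 and 0.582 CPM in vehicle fl/fl. All PTX fl/fl libraries were above all vehicle fl/fl libraries, and the CKO groups overlapped. Its edgeR log2 fold change of 0.19 ± 2.03 in CKO (adjusted p = 0.974) and 5.57 ± 2.48 in fl/fl (adjusted p = 0.223) did not pass.

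Among 25 listed genes of Gq and Gi coupling, 24 were tested; 1 was called higher and 0 lower after PTX in CKO, and 4 higher and 0 lower in fl/fl. Over all genes 2.22 percent were called higher in CKO and 3.20 percent in fl/fl, and the list's median was 0.63 in CKO and 0.29 in fl/fl. At an unadjusted p under 0.05, 11 were higher and 2 lower in CKO, and 10 higher and 4 lower in fl/fl. DESeq2 called 3 higher and 2 lower in CKO, and 7 higher and 1 lower in fl/fl. Over all genes, in either direction, 2793 of 14200 in CKO and 2776 in fl/fl had an unadjusted p under 0.05. DESeq2 called 1446 and 1626 genes in all. Gnao1, a G protein alpha subunit gene abundant in neurons, rose by 2.63 ± 0.58 in CKO (edgeR adjusted p = 0.0259) and 2.72 ± 0.58 in fl/fl (edgeR adjusted p = 0.0146). Plcb3, the phospholipase C isoform through which Gq receptors signal in sensory neurons, averaged 535 ± 374 CPM in PTX fl/fl and 105 ± 40.1 CPM in vehicle fl/fl and rose by 2.35 ± 0.53 (edgeR adjusted p = 0.0195), while its value of 2.02 ± 0.53 in CKO did not pass (edgeR adjusted p = 0.0519). Prkcd, a protein kinase C gene, rose by 1.44 ± 0.33 in fl/fl (edgeR adjusted p = 0.0212), while its value of 0.69 ± 0.33 in CKO did not pass (edgeR adjusted p = 0.254).

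Of 16 listed channels and peptides on which prokineticin signalling is known to act in nociceptors, or that act beside it, 15 were tested. In CKO 2 were higher and 1 lower after PTX, and in fl/fl 5 were higher and 1 lower, with medians of 2.40 and 2.36. Over all genes 2.22 percent were higher and 0.359 percent lower in CKO, and 3.20 percent higher and 1.76 percent lower in fl/fl. DESeq2 called 6 of the list higher and 1 lower in CKO and 8 higher and 1 lower in fl/fl. Its calls over all genes, in either direction, were 1446 in CKO and 1626 in fl/fl. Trpv1 rose in fl/fl, to 394 ± 47.6 CPM after PTX against 56.7 ± 52.8 CPM after vehicle (2.79 ± 0.58, edgeR adjusted p = 0.0131), and gave 1.46 ± 0.55 in CKO (edgeR adjusted p = 0.158). Calca, the precursor of the neuropeptide CGRP, rose by 2.40 ± 0.50 in CKO (edgeR adjusted p = 0.0204) and 2.36 ± 0.50 in fl/fl (edgeR adjusted p = 0.0138). Kcna1, an axonal potassium channel gene, fell by 1.87 ± 0.35 in CKO (edgeR adjusted p = 0.0144) and by 2.08 ± 0.35 in fl/fl (edgeR adjusted p = 0.00678). The higher genes named here moved in the direction of the neuronal share given above, whose part was not tested. Kcna1 moved against it and in the direction of the Schwann cell markers, whose part was not tested either. The medians of those markers were -2.14 in CKO and -2.37 in fl/fl. With only the later PTX date, 2 libraries a label, edgeR called 0 genes in CKO and 4 in fl/fl, against 366 and 704 with all libraries, and none of the genes named from the pathway lists was called. The sizes then were 1.36 in CKO and 2.68 in fl/fl for Trpv1, 1.94 and 1.85 for Calca, and -1.72 and -2.22 for Kcna1. Those of Gnao1 were 1.8 and 1.92 and those of Plcb3 1.12 and 1.00. With only the later vehicle date, edgeR called none of Gnao1, Plcb3, Prkcd and Calca in fl/fl, nor Kcna1 in CKO. Trpv1 and Kcna1 were then called in fl/fl, and Gnao1, Trpv1 and Calca in CKO. Both alternatives were applied to these genes after their values were seen.

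Of 20 listed genes of the G-CSF axis, which is known to drive Prok2 in myeloid cells, 18 were tested, Csf3 (G-CSF itself) and Csf2 having too few counts. In CKO 0 were called by edgeR (1 higher and 1 lower at an unadjusted p under 0.05, and 0 by DESeq2). In fl/fl 1 was called higher, Stat3, the transcription factor gene downstream of G-CSF, by 1.00 ± 0.24 (edgeR adjusted p = 0.0246). None was called lower by edgeR (2 at an unadjusted p under 0.05, and 1 by DESeq2). Over all genes 2.22 percent were called higher in CKO and 3.20 percent in fl/fl, so nothing is read from 1 call of 18. Stat3 was not called without the earlier PTX date or without the earlier vehicle date (0.95 to 1.09). The list's medians, -1.19 in CKO and -0.92 in fl/fl, lay below 0, as did those of the neutrophil markers. Csf3r stood at 0.394, 5.60, 405 and 273 CPM in PTX CKO and 18.8, 43.5, 527 and 428 CPM in PTX fl/fl, against 305 to 969 CPM in vehicle CKO and 217 to 754 CPM in vehicle fl/fl. It was low on the earlier PTX date alone.

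**Figure D4:**
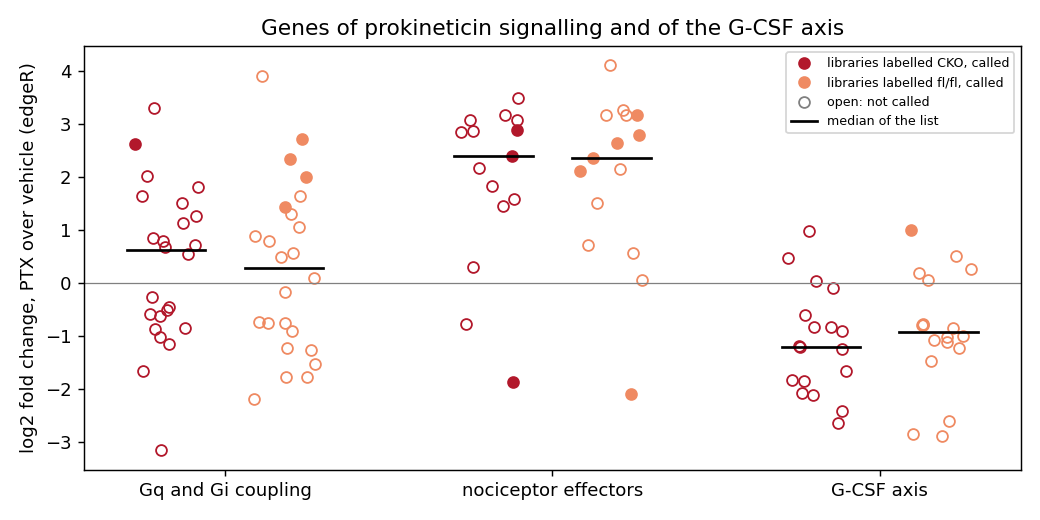
Log2 fold change of PTX over vehicle (y axis, edgeR) for each tested gene of 3 lists (x axis), with the libraries labelled CKO on the left and fl/fl on the right of each pair; filled points passed an adjusted p of 0.05 and lines are list medians. The nociceptor effectors centre on 2.40 and 2.36, the coupling genes on 0.63 and 0.29 and the G-CSF axis on -1.19 and -0.92.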

How the data were processed

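Per the labels' protocols, a stranded poly(A) kit was used with 50-base single-end reads. Per the submitters' processing notes, bcl2fastq, TopHat2 and HTSeq were used on mm9, with no versions given, and whether strand was used in counting is not given in the sources used here. The authors deposited raw read counts by gene, 1 file per library, each with 5 summary lines that were kept out of library sizes. Gene counts made up 32.88 to 43.48 percent of all alignments, reads on no feature 13.73 to 25.39 percent and reads placed more than once 39.54 to 44.18 percent. Libraries of the same group were compared in 24 pairs: 0 held the same values, and chi-square divided by its degrees of freedom was at least 19.5.

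After filterByExpr 14200 genes remained. They were TMM-scaled, and edgeR 4.0.16 (R 4.3.3) fitted them over all 16 libraries with its robust quasi-likelihood F test (12 residual degrees of freedom). Tests were two-sided and p-values adjusted by Benjamini-Hochberg across every gene tested. CPM uses effective library sizes, and log2 levels use a pseudocount of 1. DESeq2 1.42.0 was an alternative. The fit was tested on simulated data.

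Members, gene lists and tests were chosen with earlier results of these data known. Named are the members, the prokineticin list, Ltbr, up to 3 called genes of each pathway list with the smallest adjusted p, the 2 most abundant genes of each marker list, of which the text gives part, and the 5 genes most like each member. Of the listed symbols, 6 were matched through an older symbol and 3 were not matched. Medians for PTX over vehicle in CKO and fl/fl follow for the marker lists other than the pan-neuronal and neutrophil ones. Peptidergic nociceptors gave 2.13 and 2.26 and non-peptidergic nociceptors 2.90 and 3.97. Macrophages gave -2.11 and -2.85, Schwann cells -2.14 and -2.37, satellite glia -0.47 and -1.77 and endothelium -2.04 and -2.01. Fibroblasts gave -2.21 and -3.35 and lymphocytes -2.53 and -2.26. Between labels under PTX, libraries with the same replicate number deviated together (correlations 0.43, 0.48, 0.47 and 0.23). They also share a title date, and the same number was the best match in 5 of 8 cases. With a replicate block the number of calls between labels under PTX was still 0.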

Additional observations from a re-analysis of the deposited data

Results flagged for a closer look

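A sample far from the other 3 of its group was found for 10 of 36 sets of 4 values. The rule's chance rate of about 1 in 20 is for independent, normally spread values. It does not apply to CPM with many zeros, where a single read can be flagged and a set of only zeros cannot. The 10 are therefore a description. For the members these were Prokr1 at 44.4 CPM in PTX CKO (replicate 4) and 8.44 CPM in vehicle CKO (replicate 4), Prok2 at 10.3 CPM in PTX fl/fl (replicate 3) and 22.4 CPM in vehicle CKO (replicate 3), and Prokr2 at 0.117 CPM, a single read, in vehicle fl/fl (replicate 2). Mrap2 stood apart at 8.98 CPM in vehicle CKO (replicate 1). Mpo and Elane stood apart in replicate 3 of both PTX groups, at 2600 and 766 CPM in PTX CKO and at 358 and 128 CPM in PTX fl/fl. In both groups that library also held the highest Prok2 level of its group. As Mpo and Elane were picked for their likeness to Prok2 over these libraries, this is no separate evidence.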

How the results depend on the processing

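Genes called between PTX and vehicle, 366 in CKO and 704 in fl/fl, were 126 and 361 with a replicate block (numbers that pair the libraries by no label), 1446 and 1626 by DESeq2, and 0 and 4 without the earlier PTX date. They were 159 in CKO with only the groups compared and 47 in fl/fl without the earlier vehicle date. Without single libraries they ranged from 30 to 549 in CKO (68 and 30 without PTX replicates 1 and 2, 209, 36 and 97 without vehicle replicates 1, 2 and 3) and from 177 to 845 in fl/fl (177 and 206 without PTX replicates 1 and 2, 263, 307 and 449 without vehicle replicates 1, 2 and 3). Between labels, the 0 calls under PTX were 18 by DESeq2. The 3 under vehicle were 1 with the replicate block or the date term, 0 with only the groups compared or without the earlier PTX date, 108 by DESeq2 and 1 to 15 without single libraries. The 1 interaction call was 0 with RLE scaling, the replicate block or without either earlier date, 59 by DESeq2 and 0 to 4 without single libraries.

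The fitted PTX value of Prokr2, which depends on the prior count because vehicle is at or near 0, was positive throughout, 10.39 in CKO (10.15 to 10.73 without single libraries) and 9.53 in fl/fl (9.19 to 11.14, and 11.13 without the earlier vehicle date). Its call was lost in both genotypes without the earlier PTX date, where the fitted value was 9.96 in CKO and 9.54 in fl/fl, and was kept under every other alternative run. Prokr1 in CKO was 4.69 with the replicate block and 2.78 to 8.77 without single libraries, and -0.11 to 0.96 in fl/fl. It was called without vehicle CKO replicate 4 alone, and nothing is read from that call, for the reason given above. Prok2 was -1.13 to 0.32 in CKO and -3.70 to -1.27 in fl/fl. By label, fitted values turned for Prokr1 under PTX (-0.46 with the replicate block, -0.32 to 0.63 without single libraries) and for Prok2 (-0.53 under PTX with the date term, -0.11 under vehicle with the replicate block, -0.08 to 0.92 without single libraries). In the permutation test the ranges without single libraries were -0.30 to 1.36 (Prokr1) and -0.02 to 1.72 (Prok2) under PTX and 0.11 to 0.85 (Prok2) under vehicle, the last with an exact permutation p = 0.0286 without replicate 1 of vehicle fl/fl. The cause of these changes was not tested.

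Limits are 4 libraries a group, dates nested in treatment, and neuronal and neutrophil shares that differ between libraries. Counts of the targeted gene were not lower under its label and cannot decide whether it was deleted. At these depths 0 reads in a library cannot be told from a level under about 3 counts.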
